A study of Ovis aries with 6 samples.

Results

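Transthyretin (TTR), albumin (ALB), carbonic anhydrase 1 (CA1) and the haemoglobin beta chain (HBB) encode proteins that are best known from blood plasma and red cells, and their transcripts were followed here in sheep skin. The 4 genes are read by 6 of the 15008 different probes on the array, namely 1 probe for TTR, 2 for ALB, 2 for CA1 and 1 for HBB, and by 4 of the 476 gene symbols that could be placed through RefSeq accessions. The probes were A_70_P030191 (TTR), A_70_P051002 (ALB) and A_70_P039261 (CA1), together with each further probe whose accession is a sheep RefSeq mRNA of these genes. They were selected on the log2 signal of these same arrays, with the breed difference already known, so their breed differences are given as a description. How many of them were past the threshold of the fit over all probes is given once as a count, from which nothing is read.

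Full-thickness body side skin of about 1 cm2 was taken at 12 months of age from 3 sheep of the Aohan fine wool breed and 3 of the small tail Han breed, and the RNA of each animal was labelled with Cy3 and hybridised to its own 1-colour Agilent sheep array. All 6 animals were reared in pens with no experimental treatment named, and each breed was represented by 1 ram and 2 ewes. Which animal was the ram is not given per sample, and the animals of a breed had 1 sire in common. The arrays of each breed were also scanned in a session of their own, so breed, sire and scan session cannot be told apart, and the spread between animals is that between paternal siblings. Aohan fine wool sheep carry fine wool and small tail Han sheep coarse wool, and the study set them against each other to find genes and proteins linked with wool fibre diameter.

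As background, transthyretin carries thyroxine in plasma and also binds the retinol-binding protein that transports vitamin A, and it is made mainly by the liver and the choroid plexus. Albumin, the most abundant plasma protein, is a liver product that carries fatty acids, bilirubin, hormones and metal ions. Carbonic anhydrase 1 interconverts carbon dioxide and bicarbonate and is abundant in the cytosol of red cells, with further expression in the gut, and the beta chain forms haemoglobin with the alpha chain. Sheep red cells lose their nucleus before they enter the circulation, and globin mRNA persists in young red cells for a time. Full-thickness skin holds blood vessels with their contents beside the epidermis, the dermis and the wool follicles. In bulk tissue, fewer cells of a type and less RNA per cell cannot be told apart.

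Array brightness set the frame for these dim probes. The 75th percentile of the background-subtracted Cy3 intensity was 1103.0, 2048.3 and 1130.5 in Aohan fine wool replicates 1, 2 and 3 and 2309.3, 1836.5 and 1747.5 in small tail Han replicates 1, 2 and 3. Between 10774 and 13418 probes were well above background on the Aohan fine wool arrays and between 11055 and 12965 on the small tail Han arrays, where well above background is the scanner software's own mark for each spot. No spot was saturated, and the number of arrays limits the precision. Unless stated otherwise, levels below are log2 intensities relative to the array's own 75th percentile, and differences are Aohan fine wool minus small tail Han on that scale, each with its standard error (SE) from a limma fit over all tested probes. Keratinocyte genes were bright on every array, with the summed log2 level of SFN, KRT27 and KRT25 at 8.97 to 9.90 in Aohan fine wool sheep and 9.27 to 9.72 in small tail Han sheep, so the libraries had the markers of skin that the labels give.

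Of the 6 probes, 5 were well above background on 3 or more arrays and entered the fit, and the CA1 probe A_70_P039262 did not. In the fit, 2 of these 5 probes, the TTR probe and the CA1 probe A_70_P039261, were past a Benjamini-Hochberg adjusted p of 0.05, both lower in Aohan fine wool sheep. Over all 12480 tested probes 15.2% passed, 7.57% with Aohan fine wool sheep higher and 7.6% with them lower. The same 2 probes had values that did not overlap between the breeds, which was the case at 34.2% of all tested probes. Since the breed contrast was known when the probes were chosen, nothing is read from these counts.

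TTR was the gene of the 4 with the widest gap between the breeds. The TTR probe had processed intensities of 33.4, 19.8 and 10.7 in Aohan fine wool replicates 1, 2 and 3, and of 392, 343 and 314 in small tail Han replicates 1, 2 and 3. Relative to the 75th percentile these were log2 levels of -5.04, -6.70 and -6.73 in Aohan fine wool sheep, against -2.56, -2.42 and -2.48 in small tail Han sheep. The small tail Han animals lay within 0.14 log2 units of each other while the Aohan fine wool animals spread over 1.68, and the gap between the breeds was 2.48. The means were -6.16 ± 0.96 in Aohan fine wool sheep and -2.48 ± 0.07 in small tail Han sheep (SD, n = 3 each), a difference of -3.67 (SE 0.43).

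**Figure D1:**
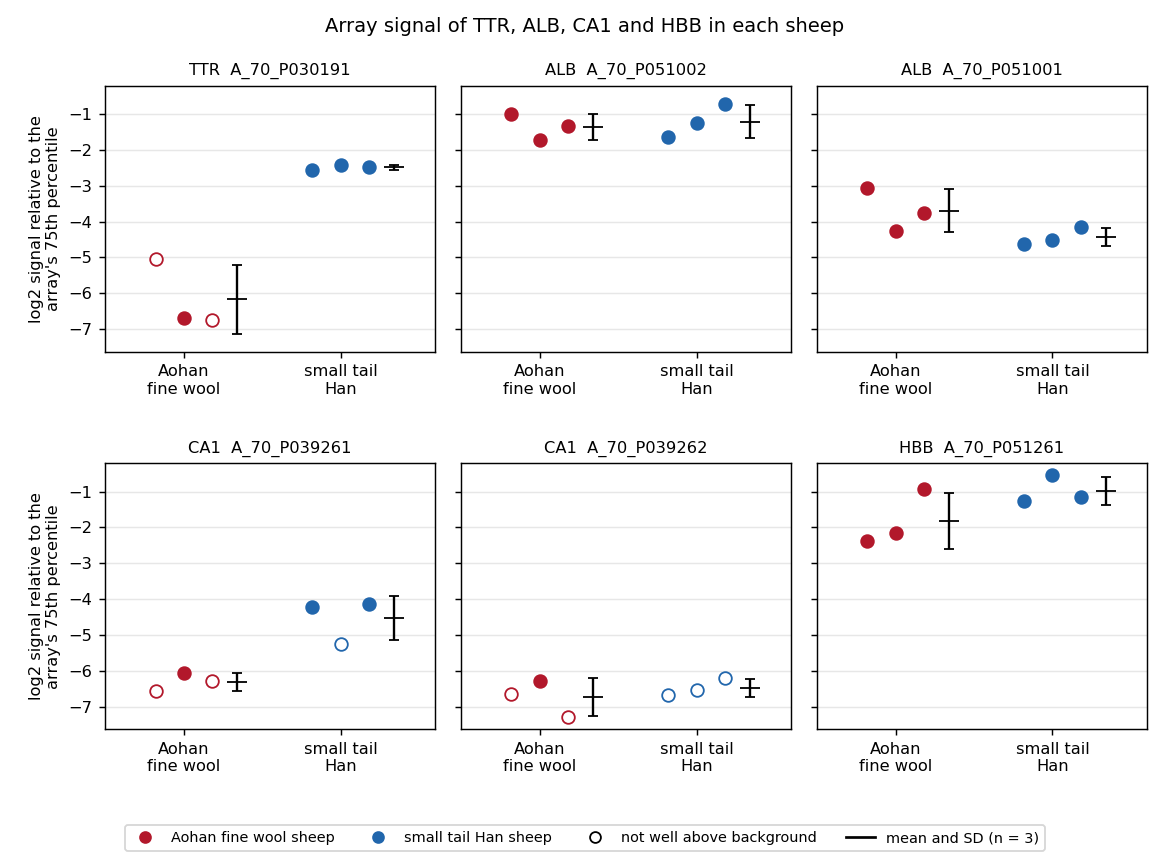
Log2 signal relative to the array's 75th percentile (vertical axis) of the 6 probes of TTR, ALB, CA1 and HBB, with 1 point per animal, Aohan fine wool sheep on the left and small tail Han sheep on the right of each panel, open points for spots not well above background, and bars for the mean and SD of 3 animals. The TTR points of the breeds lie 2.48 log2 units apart, the CA1 points of A_70_P039261 lie 0.82 apart, and the points of the other 4 probes overlap.

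The Aohan fine wool TTR values lay close to the floor of the array. TTR was well above background on 1 of the 3 Aohan fine wool arrays, that of replicate 2, and on 3 of 3 small tail Han arrays. The scanner software gave its Aohan fine wool intensities an error of 12.5, 4.01 and 6.59 in replicates 1, 2 and 3, so that replicate 3, at 10.7, was less than 2 such errors above 0. The raw median of the TTR spot was 94, 77 and 71 in the Aohan fine wool animals, over a local surround of 41, 46 and 40, against 405, 408 and 380 in the small tail Han animals, over a surround of 49, 50 and 53. Negative control spots give the scale of that floor, with a 95th percentile of 16.5, 5.3 and 7.5 and a highest spot of 58, 15.4 and 50 on the Aohan fine wool arrays, against a 95th percentile of 8.1, 11.2 and 5.9 and a highest spot of 48.4, 27.8 and 85.6 on the small tail Han arrays. Every small tail Han TTR value was above the highest of its array's 77 negative controls, and in Aohan fine wool sheep this held for replicate 2 alone.

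How the floor was treated therefore set the size of the TTR difference. With each array that was not well above background given the higher of its own signal and the lowest signal of any probe so marked on that array, the difference was -3.32, or 10-fold lower in Aohan fine wool sheep. With the normexp background correction, which adds an offset of 50 and compresses low signals, it was -1.76, with levels of -3.41, -4.58 and -3.83 in Aohan fine wool sheep and -2.10, -2.21 and -2.23 in small tail Han sheep, which still did not overlap. Without any scaling between arrays the geometric means were 19.2 in Aohan fine wool sheep and 348 in small tail Han sheep, a difference of -4.18. Leaving out 1 animal at a time moved it between -4.23, without Aohan fine wool replicate 1, and -3.38, without Aohan fine wool replicate 3. Aohan fine wool replicate 2, whose array was as bright as the small tail Han arrays, had TTR at 0.965% of its 75th percentile, against 17.0%, 18.7% and 18% in the small tail Han animals.

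**Figure D2:**
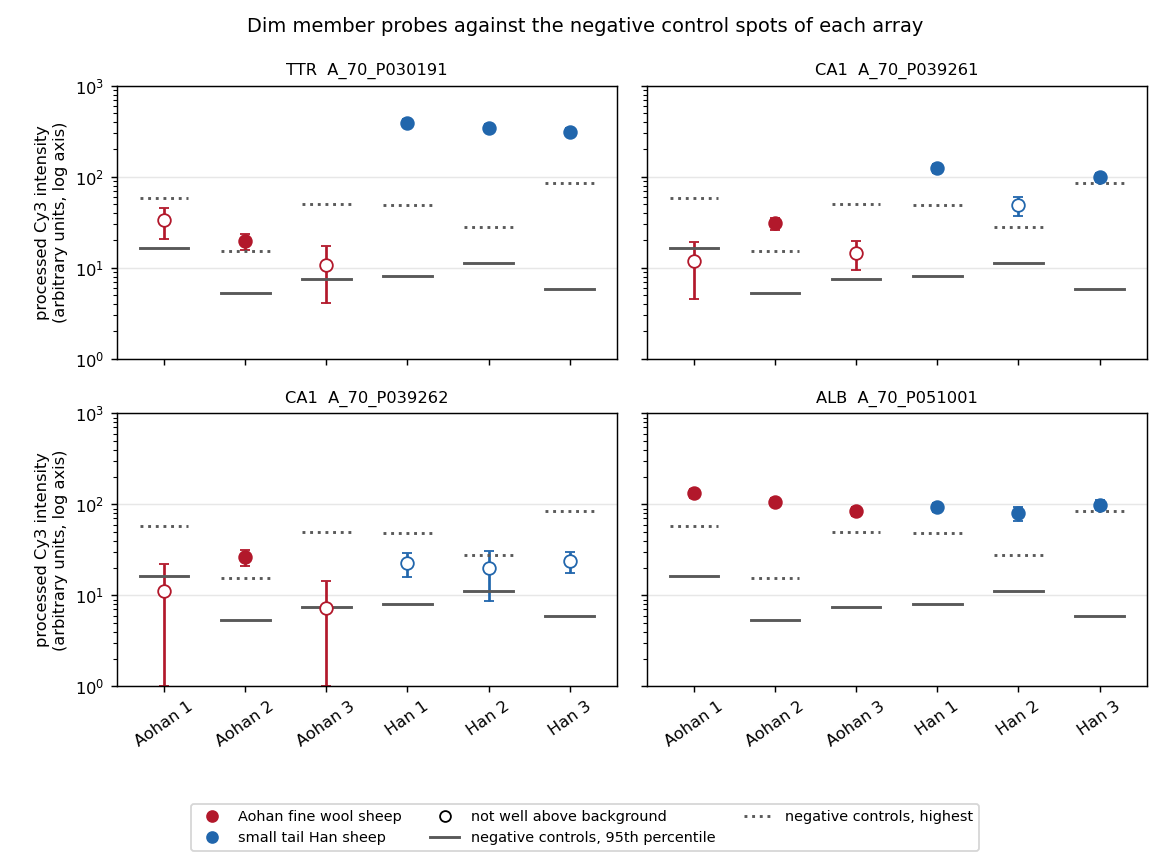
Processed Cy3 intensity in arbitrary units on a log axis for the TTR probe, both CA1 probes and the dimmer ALB probe on each array, Aohan fine wool arrays on the left and small tail Han arrays on the right of each panel. Bars are the scanner software's error (cut at 1 where they would reach lower), open points are not well above background, and the solid and dotted lines mark the 95th percentile and the highest of the 77 negative control spots of that array; TTR was 314 to 392 in small tail Han sheep, above every dotted line, and 10.7 to 33.4 in Aohan fine wool sheep.

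ALB, the other plasma carrier, was measured on every array by both of its probes, and the probes differed in sign. At A_70_P051002 the processed intensity was 549, 619 and 445 in Aohan fine wool replicates 1, 2 and 3 and 733, 768 and 1050 in small tail Han replicates 1, 2 and 3. On the scaled log2 axis this became -1.01, -1.73 and -1.34 in Aohan fine wool sheep, against -1.65, -1.26 and -0.73 in small tail Han sheep. Each breed had animals inside the other's range, although the unscaled intensities of the breeds did not overlap. The means were -1.36 ± 0.36 in Aohan fine wool sheep and -1.22 ± 0.46 in small tail Han sheep (SD, n = 3 each), a difference of -0.14 (SE 0.27) that was smaller than the spread within either breed. Its sign was not stable: it was 0.13 with the normexp correction, 0.04 without Aohan fine wool replicate 2 and 0.10 without small tail Han replicate 3, and -0.66 without scaling.

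The second ALB probe, A_70_P051001, is printed on each array several times and so shows the error among spots within an array as well. Its 4 or 5 usable spots averaged 133, 107 and 83.9 in Aohan fine wool replicates 1, 2 and 3 and 93.6, 79.9 and 99.2 in small tail Han replicates 1, 2 and 3. The coefficient of variation among spots was 22.2%, 6.8% and 8.36% in the Aohan fine wool arrays and 9.58%, 11.2% and 8.46% in the small tail Han arrays. On the array of Aohan fine wool replicate 1, the most variable, single spots ran from 104 to 177, and the 50 probes with 5 spots had a median coefficient of variation of 18.3% there, against 5.18% to 10.1% on the other 5 arrays. Relative to the 75th percentile the probe was at -3.05, -4.26 and -3.75 in Aohan fine wool sheep, against -4.62, -4.52 and -4.14 in small tail Han sheep, which overlapped by 0.12. The means of -3.69 ± 0.61 in Aohan fine wool sheep and -4.43 ± 0.26 in small tail Han sheep (SD, n = 3 each) gave a difference of 0.74 (SE 0.32).

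That second difference was smaller without the scaling. The unscaled geometric means of A_70_P051001 were 106 in Aohan fine wool sheep and 90.5 in small tail Han sheep, a difference of 0.23, while the 75th percentile itself was lower by 0.51 log2 units in Aohan fine wool sheep. The difference was 0.28 with normexp, and it ranged from 0.42 without Aohan fine wool replicate 1 to 1.03 without Aohan fine wool replicate 2. The values of the ALB probes had a Pearson correlation of 0.457 over the 6 arrays, which share their scaling. The pair gave no common direction for ALB.

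CA1 was at the edge of detection at both of its probes. At A_70_P039261 the processed intensity was 11.8, 30.7 and 14.6 in Aohan fine wool replicates 1, 2 and 3, of which replicate 2 alone was well above background, and 124, 48.7 and 99.8 in small tail Han replicates 1, 2 and 3, of which replicates 1 and 3 were. The log2 levels were -6.55, -6.06 and -6.28 in Aohan fine wool sheep, against -4.22, -5.24 and -4.13 in small tail Han sheep. All 3 small tail Han values were above all 3 Aohan fine wool values, with small tail Han replicate 2 the nearest to them at a gap of 0.82. The means of -6.30 ± 0.25 in Aohan fine wool sheep and -4.53 ± 0.61 in small tail Han sheep (SD, n = 3 each) differed by -1.77 (SE 0.37).

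The size of this CA1 difference also depended on the treatment of low signals. It was -1.24, or 2.36-fold lower in Aohan fine wool sheep, with the same floor as for TTR on arrays not well above background. With normexp it was -0.63, the levels being -3.65, -4.33 and -3.81 in Aohan fine wool sheep and -2.74, -3.77 and -3.40 in small tail Han sheep, so that small tail Han replicate 2 fell inside the Aohan fine wool range. The unscaled difference was -2.28, and leaving out single animals gave -2.12 to -1.57.

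The other CA1 probe, A_70_P039262, was read at 11.1, 26.6 and 7.25 in Aohan fine wool replicates 1, 2 and 3 and at 22.5, 19.9 and 23.8 in small tail Han replicates 1, 2 and 3. It was well above background in Aohan fine wool replicate 2 and in no small tail Han animal. Its log2 levels were -6.64, -6.27 and -7.29 in Aohan fine wool sheep and -6.68, -6.53 and -6.20 in small tail Han sheep, which overlapped, and no fold is given where no array of a breed was well above background. The gap seen at A_70_P039261 was therefore not seen at the second probe, which had no reading in small tail Han sheep from which a difference could be measured.

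A further probe, A_70_P025751, is described in the study's annotation as an expressed sequence cluster that matches part of sheep carbonic anhydrase 1. It carries no RefSeq accession, is not counted among the 6 probes, and was taken up after its values were seen. It was well above background on all 6 arrays, at -0.80, -0.94 and -1.05 in Aohan fine wool sheep and -2.06, -1.83 and -2.08 in small tail Han sheep. Every Aohan fine wool value was above every small tail Han value, by at least 0.78. The difference was 1.06 (SE 0.16), or 2.08-fold higher in Aohan fine wool sheep, where that of A_70_P039261 was -1.77. Without scaling it was 0.55, and the intensities overlapped, at 634, 1070 and 545 in Aohan fine wool sheep and 556, 517 and 414 in small tail Han sheep. Whether this probe reads CA1 itself, another transcript of the locus or a related gene was not tested.

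HBB, the haemoglobin beta chain, was bright enough to be well above background on every array. Its processed intensity was 212, 465 and 597 in Aohan fine wool replicates 1, 2 and 3 and 972, 1260 and 783 in small tail Han replicates 1, 2 and 3. Before scaling, all Aohan fine wool values were thus below all small tail Han values, and the geometric means were 389 in Aohan fine wool sheep and 985 in small tail Han sheep, a difference of -1.34. After scaling the log2 levels were -2.38, -2.14 and -0.92 in Aohan fine wool sheep, against -1.25, -0.55 and -1.16 in small tail Han sheep. Aohan fine wool replicate 3 then lay inside the small tail Han range, and the other 2 Aohan fine wool animals lay below it. The means of -1.81 ± 0.78 in Aohan fine wool sheep and -0.98 ± 0.38 in small tail Han sheep (SD, n = 3 each) gave a difference of -0.83 (SE 0.37), or 1.78-fold lower in Aohan fine wool sheep.

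Single animals moved the HBB difference in both directions. Without Aohan fine wool replicate 3 it was -1.27, without Aohan fine wool replicate 1 it was -0.54, and without small tail Han replicate 2 it was -0.61. It was -0.91 with normexp, -0.86 after quantile normalization and -0.87 with the values of the series matrix, so the background correction that cut the TTR and CA1 differences left that of HBB near its size. The order of the animals was not that of CA1: among Aohan fine wool animals the highest HBB level was in replicate 3 and the highest CA1 level (A_70_P039261) in replicate 2, and among small tail Han animals the highest HBB level was in replicate 2, where CA1 was lowest.

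**Figure D3:**
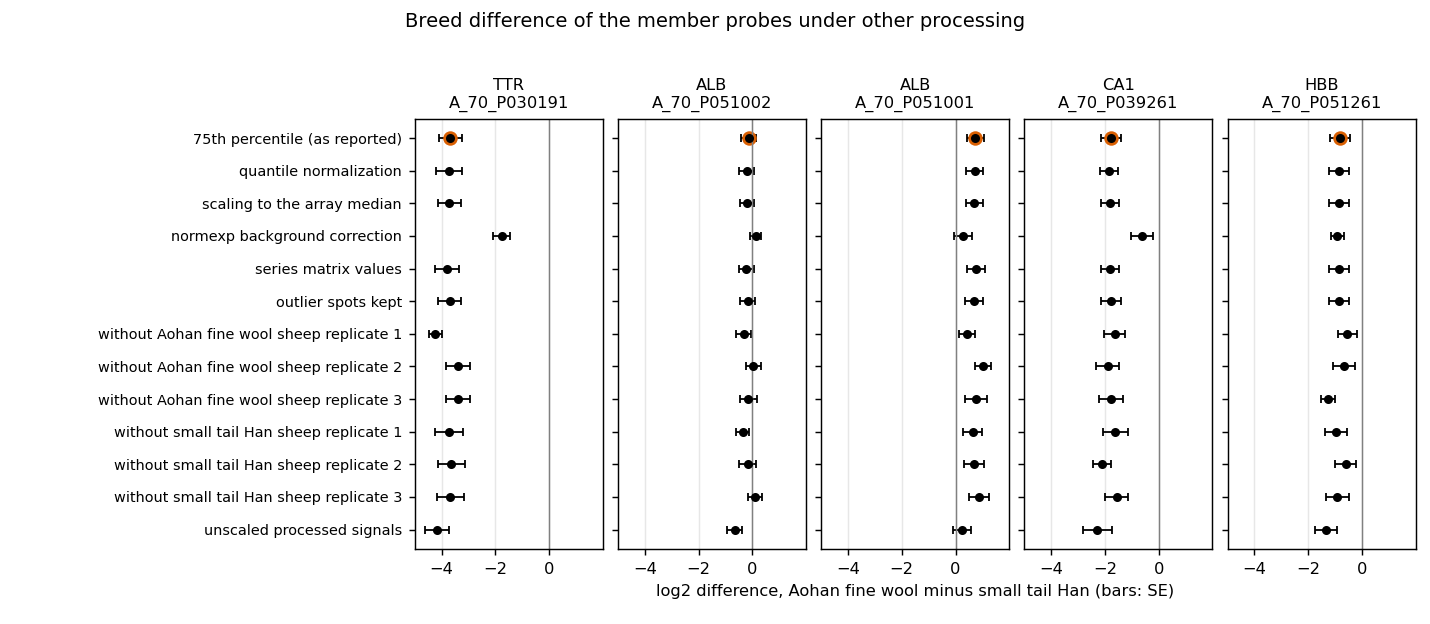
Log2 difference, Aohan fine wool minus small tail Han (horizontal axis, bars: SE), of the 5 probes that entered the fit, under the processing reported here (orange, top row) and under other settings. The TTR and CA1 points lie below 0 in every row and move toward 0 with normexp (to -1.76 and -0.63), the points of ALB A_70_P051002 lie on both sides of 0, those of ALB A_70_P051001 stay above it and those of HBB below it.

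The relations among the 4 genes differed over all animals and within breeds. Over the 6 arrays TTR and CA1 (A_70_P039261) had a Pearson correlation of 0.834, but with each breed's mean taken out it was -0.38. For CA1 and HBB these correlations were 0.483 and -0.329, and for TTR and HBB 0.486 and -0.545, so these 3 pairs were positive over all arrays and negative within breeds. ALB (A_70_P051002) and TTR gave 0.354 over the arrays and 0.546 within breeds, ALB and CA1 gave 0.146 and -0.116, and ALB and HBB 0.0922 and -0.0528. These are descriptions over 6 arrays that share the scaling and the split by breed, and the TTR and CA1 points in Aohan fine wool sheep are mostly readings near background.

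Among 422 other named genes with a value on every array, those whose levels ran most like TTR over the 6 arrays were IRAK4, a kinase of Toll-like receptor signalling (r = 0.984), SFTPA1, a surfactant protein (0.981), LOC100125357 (0.965) and SLC2A5, a fructose transporter (0.963). Their own differences were -0.57, -0.75, -1.17 and -2.43 in that order, each smaller in size than that of TTR, and with breed means removed the correlations were 0.955, 0.867, 0.861 and 0.433. The TTR deviations behind the latter lay almost wholly in Aohan fine wool sheep (SD 0.96, against 0.07 in small tail Han sheep). They rested largely on replicate 1, at -5.04 and not well above background. SLC2A5 was at -3.48, -3.85 and -3.65 in Aohan fine wool sheep, against -1.65, -1.0 and -1.04 in small tail Han sheep, again without overlap. For ALB the nearest were TLR2 (0.989), PAG9 (0.975), the zinc transporter SLC39A13 (0.967) and the interferon receptor IFNAR1 (0.962), whose differences lay between -0.16 and -0.01. With breed means removed these correlations were still 0.962 to 0.994, so the shared ALB order lay within breeds. Each animal had 1 array, so differences among animals and among arrays cannot be told apart here. In each breed the lowest level of ALB (A_70_P051002) was on the array with the highest 75th percentile (2048.3 and 2309.3). Whether the scaling had a part in this order was not tested.

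For CA1 the nearest genes were DGAT1, an enzyme of triglyceride synthesis (r = 0.956), the water channel AQP4 (0.948), RHOBTB2 (0.94) and the skeletal muscle troponin TNNC2 (0.94), or 0.692, 0.825, 0.526 and 0.788 in that order with breed means removed. For HBB they were SNRPA1, a spliceosome protein (0.914), GUCA2A (0.861), the oestrogen receptor ESR2 (0.845) and STAR (0.84), or 0.976, 0.924, 0.791 and 0.772 with breed means removed. No gene ran as close to HBB as the nearest ones did to TTR, ALB or CA1. The likeness of AQP4 to CA1 was 0.811 after quantile normalization.

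The other genes of red cells and plasma did not share 1 direction. Of 19 haemoglobin chain names looked for, HBB was the only one with a named probe, so no alpha chain was there to set beside it. Of 38 red cell and haem genes, 2 besides CA1 were tested and 0 passed. These were EPO, the hormone of red cell formation (difference 0.22, SE 0.20), and UROD, an enzyme of haem synthesis (0.05, SE 0.24). Their median difference was 0.13, against 0.02 over all tested probes. Of the genes for iron handling, 2 were tested. SLC11A1, a metal transporter of macrophages, rose in Aohan fine wool sheep at one probe (0.87, SE 0.22, limma adjusted p = 0.0318) while its other probe gave 0.53 (adjusted p = 0.25), and the ferritin heavy chain FTH1 gave -0.15 (SE 0.30).

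Among liver-derived plasma proteins, 5 genes besides TTR and ALB were tested, and 1 of them passed, where 15.2% of all tested probes did. The median difference over the 5 was -0.37, against 0.02 over all tested probes. AHSG, fetuin-A, a plasma inhibitor of mineral deposition, was at 0.65, -0.02 and 0.51 in Aohan fine wool sheep, against 1.07, 1.43 and 1.56 in small tail Han sheep. It fell by 0.97 in Aohan fine wool sheep at this probe (SE 0.21, limma adjusted p = 0.0174), and its other probe gave -0.63 (adjusted p = 0.163). Antithrombin (SERPINC1) gave 0.79 (adjusted p = 0.0758), LCAT, which esterifies plasma cholesterol, -0.37 (adjusted p = 0.332), prothrombin (F2) -0.38 (adjusted p = 0.504) and alpha-1-antitrypsin (SERPINA1) 0.18 (adjusted p = 0.568), all from the same limma fit. The plasma proteins around TTR thus lay on both sides of 0, and ceruloplasmin (CP) and the thyroxine-binding globulin SERPINA7 were too dim to be tested. The call for AHSG was lost without small tail Han replicate 2 or 3 and with the methods' t-test after adjustment. That for SLC11A1 was lost under 9 of the other settings, among them normexp (0.33), unscaled signals (0.36), the methods' t-test after adjustment, and the removal of any 1 animal other than small tail Han replicate 3.

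**Figure D4:**
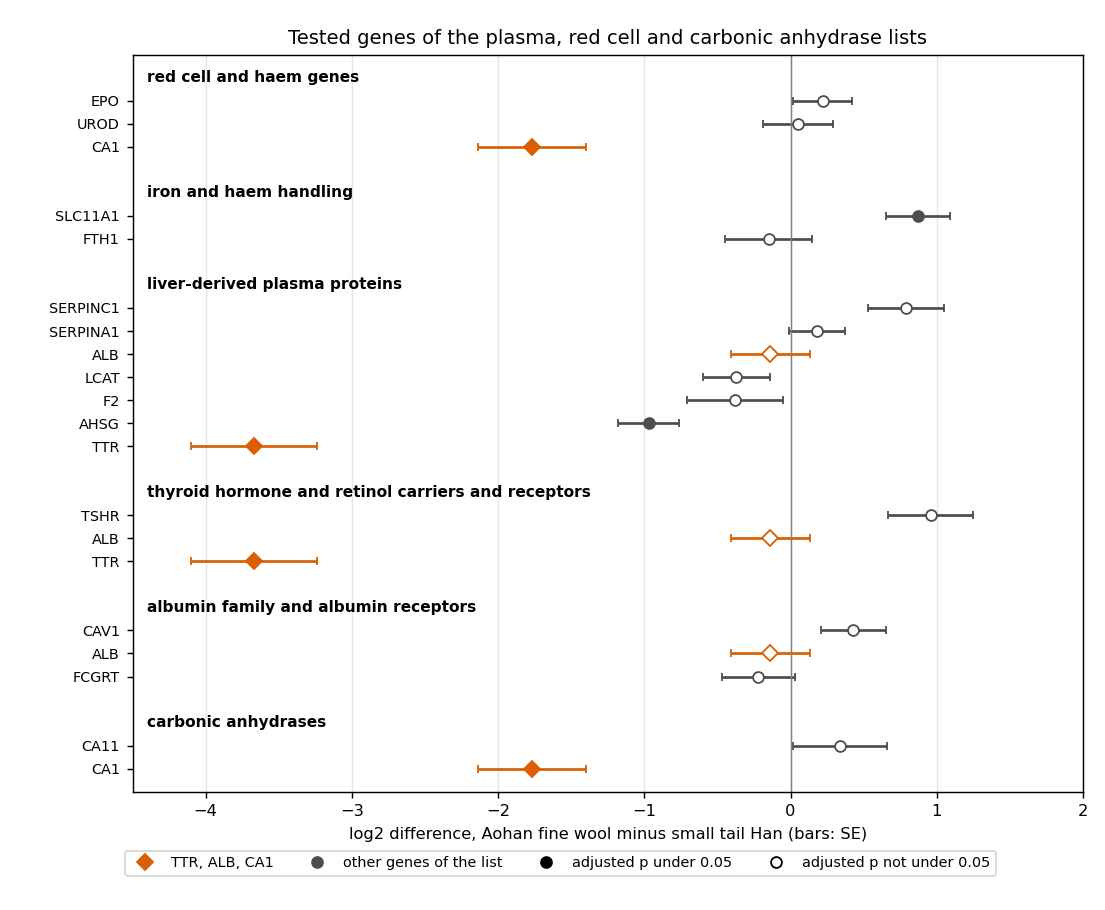
Log2 difference, Aohan fine wool minus small tail Han (horizontal axis, bars: SE), of the tested genes in 6 lists around plasma carriers, red cells and carbonic anhydrases, 1 probe per gene, with TTR, ALB and CA1 as orange diamonds and the other genes as grey circles, filled where the limma adjusted p was under 0.05. Among the other genes SLC11A1 (0.87) and AHSG (-0.97) are filled, and TTR (-3.67) and CA1 (-1.77) lie to the left of every other gene shown.

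The partners of the 4 proteins were sparsely covered. Of the thyroid hormone and retinol genes, the thyrotropin receptor TSHR had a difference of 0.96 (SE 0.29, limma adjusted p = 0.0572), and SERPINA7, the thyroid hormone receptor THRA and TRHR were not tested, since their probes were well above background on at most 1 array. The neonatal Fc receptor FCGRT, which spares albumin from breakdown, gave -0.22 (SE 0.25) and caveolin 1 (CAV1) gave 0.43 (SE 0.22). CA11, a carbonic anhydrase relative that lacks the enzyme activity, gave 0.34 (SE 0.32), and the water channel AQP5 gave 0.06 (SE 0.21). None of these 5 passed. In the order of genes of the sheep reference, TTR lies next to B4GALT6 and DSG2, ALB next to ANKRD17 and AFP, and CA1 close to CA3 and CA13, and no probe of these neighbours was placed through RefSeq.

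Markers of other cells were counted beside these results. Of 27 liver enzyme and hepatocyte names, 5 had tested probes and 0 passed at the brightest probe of each gene, with summed log2 levels of 3.40 to 4.68 in Aohan fine wool sheep and 3.89 to 4.19 in small tail Han sheep, while a dimmer probe of HSD11B1 passed at -1.11 (SE 0.27, limma adjusted p = 0.0281). Of 16 choroid plexus and brain names, IGF2 alone was tested beside TTR, while AQP1 was on the array but not tested. IGF2 gave 0.68 (SE 0.25, adjusted p = 0.107 in limma), with 1.12 at a dimmer probe that passed. Of 23 white blood cell names 7 were tested, and 3 of these, CD3D (0.92), CD3E (1.11) and ITGB2 (0.95), were higher in Aohan fine wool sheep in the fit, where 7.57% of all probes were. CD14 (0.19), ITGAM (0.88), LCK (0.34) and FCGR1A (0.55) did not pass. The 7 genes had summed log2 levels of 2.95 to 3.25 in Aohan fine wool sheep and 1.85 to 2.51 in small tail Han sheep, and CD4 was too dim to be tested. Second probes of CD3E (1.05) and ITGB2 (0.7) passed as well. That of CD3D did not (0.73, limma adjusted p = 0.088), and that of CD14 gave -0.31. Of 5 muscle genes tested, CNN1 was lower in Aohan fine wool sheep in the fit (-1.31), where 7.6% of all probes were. A dimmer probe of TNNC2 passed as well at -1.37, while the brighter one gave -0.95. MYOD1 (-0.55), MB (0.25) and MYOG (0.2) did not pass. The summed level was 3.88 to 4.61 in Aohan fine wool sheep and 5.37 to 5.83 in small tail Han sheep. It was nearly that of CNN1 alone, at 3.85 to 4.59 in Aohan fine wool sheep and 5.36 to 5.83 in small tail Han sheep. Of 4 endothelial genes 0 passed. EDN1 gave 0.63 (SE 0.22), SELE -0.39 (SE 0.2) and ICAM1 -0.23 (SE 0.35). SELP, which is 1 of these 4 and also the only platelet name tested, gave -0.35 (SE 0.19) and -0.57 at its other probe. The part of blood content, vessel density or cell makeup in the values of TTR, ALB, CA1 and HBB was not tested.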

How the data were processed

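RNA from 6 skin samples, 3 per breed, was read on 1-colour Cy3 arrays. Per the file headers, the authors used version 10.5.1.1 of Agilent Feature Extraction on the scans (the methods name another version), and the deposited scanner files hold background-subtracted intensity per spot with no scaling between arrays. The deposited series matrix holds log2 values whose method of normalization is not given in the sources used here. Its 6 columns have the same median (8.31), 75th percentile (11.0) and maximum (18.98), as quantile normalization would give. Its direction matches the scanner values, and it served as an alternative close to the quantile normalization run here.

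Control spots and outlier spots were dropped, log2 was taken, each array's 75th percentile over probes was subtracted and spots of a probe were averaged. Of 15208 spots that were not controls (15008 probes), 12480 probes were tested, with a mark well above background on 3 or more arrays and 2 or more values per breed. Breeds were compared in R 4.3.3 with limma 3.58.1 (moderated variances that follow the mean intensity, two-sided tests, Benjamini-Hochberg at 0.05 over all tested probes), which was first tested on simulated data. P-values measure only the spread between these paternal siblings. Where a gene has several probes, the tested probe of highest mean stands for it in lists.

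Of 758 probes with an accession, 734 were named from RefSeq's sheep genes (assembly ARS-UI_Ramb_v3.0), which was used for names and gene order alone. Named were all probes of the 4 genes, related probes, list genes that passed (up to 6) with up to 3 others by smallest p, further list genes of the partner sets, and for each of the 4 genes the 4 other genes of highest correlation. The members and lists were chosen with earlier results of these data known, and no list was tested as a set. The result of 1 listed gene is not reported here, and the list is counted without it.

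The alternatives were quantile normalization, scaling to the median, normexp (offset 50, on spot and background medians), the series matrix values, no filter or a filter on all 6 arrays, variances without the trend, outlier spots kept, a block for the replicate number, each array left out, and the methods' t-test. Unscaled signals and a floor for arrays not well above background were added after the data were seen. Figures used matplotlib 3.10.9 in Python 3.11.15 (pandas 2.3.3, numpy 2.4.6). Proteome data were not used here.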

Additional observations from a re-analysis of the deposited data

How the results depend on the processing

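TTR and CA1 (A_70_P039261) stayed lower in Aohan fine wool sheep under every setting run that included them. TTR was -1.76 and CA1 -0.63 with the normexp background correction, and CA1 was -1.24 with arrays not well above background at the higher of their own signal and the lowest signal so marked, and -2.28 with unscaled signals. Without scaling, ALB A_70_P051001 gave 0.23 and ALB A_70_P051002 -0.66. The unscaled fit had a median difference of -0.49 over all tested probes, against 0.02 with scaling, and 3.76% of its 2206 calls were higher in Aohan fine wool sheep (83 higher, 2123 lower), against 49.9% of 1893 with scaling (945 higher, 948 lower); the unscaled signals and the floor were chosen after seeing the data. The number of probes that passed was 1234 with the replicate block, 712 with the methods' t-test after Benjamini-Hochberg adjustment and 3234 at its unadjusted p, and leaving out 1 array gave 789 (without small tail Han replicate 2) to 2248 (without small tail Han replicate 1), with 1063 without Aohan fine wool replicate 3 and 944 without small tail Han replicate 3. Of the 5 tested probes of the 4 genes, 2 passed as reported, 0 with the filter on all 6 arrays (TTR and CA1 are not in it), 2 with normexp (TTR and HBB), 3 without scaling (TTR, CA1 and HBB), 1 with the methods' t-test after adjustment (TTR), and 1 to 3 with an array left out (1 without small tail Han replicate 3, where CA1 did not pass, and 3 without Aohan fine wool replicate 3, where HBB did). With breed means taken out, same-numbered animals had correlations of -0.224, -0.369 and 0.278 for replicates 1, 2 and 3. The closest small tail Han animal of another number gave 0.276, 0.47 and 0.079 with Aohan fine wool replicates 1, 2 and 3. Same-numbered animals were thus the closer ones for replicate 3 alone, and so few correlations cannot settle whether the numbers stand for a pairing. With the replicate block the same 2 probes passed as reported, and SLC11A1 did not (adjusted p = 0.0776 in limma). Of the values recomputed for the counts and the 4 genes, 88 stayed within the replicate spread or within 1.5 times the count and 15 moved. Signal over background limits TTR in Aohan fine wool sheep and CA1 in both breeds.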
